A study of Homo sapiens with 30 samples.

Results

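TXNIP and 9 genes of glucose sensing and gluconeogenesis were followed through HepG2 cells treated with Sorafenib for 6 h and 24 h. The 10 genes (TXNIP, ARRDC4, MLXIPL, PKLR, SLC2A2, PCK1, PCK2, G6PC1, PPARGC1A and FBP1) were taken by symbol from a table of 60107 genes, of which 25347 had at least 1 count. HepG2 is an established human liver cancer line, labelled as hepatocellular carcinoma, whereas the study's text calls it hepatoblastoma. All groups came from this single line. RNA was sequenced as 3′ tags in 30 libraries, 10 groups of 3 biological replicates, with 3938764 to 9657063 counts per library. All cells were transfected with an oligonucleotide and received 10 µM Sorafenib or its vehicle DMSO 24 h later. The 6 h groups carried an inhibitor control (IC) or an inhibitor of miR-200c-3p (I200c). The 24 h groups carried a mimic control (MC), a miR-222-5p mimic (M222) or a miR-512-3p mimic (M512). Time and the kind of oligonucleotide therefore cannot be told apart.

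In the liver, glucose enters hepatocytes through the transporter encoded by SLC2A2, and its phosphorylated products activate ChREBP, the transcription factor encoded by MLXIPL. With its partner MLX, ChREBP binds a paired E-box element called ChoRE in genes such as TXNIP, ARRDC4 and PKLR, the last of which encodes liver pyruvate kinase. TXNIP encodes an alpha-arrestin that binds thioredoxin and restrains glucose uptake, and the energy sensor AMPK marks its protein for degradation. In fasting, the coactivator encoded by PPARGC1A drives the gluconeogenic enzymes encoded by PCK1, FBP1 and G6PC1, while PCK2 encodes the mitochondrial form of the PCK1 enzyme.

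Promoter windows were printed for the ChREBP targets TXNIP, PKLR and ARRDC4 because they share a regulator in the background above. Whether their responses to Sorafenib differed from one another was not tested. Each window holds 250 bases before and 50 bases after a RefSeq start site (GRCh38.p14), written 5′ to 3′ on the strand of the gene. The TXNIP window lies at chr1:145996530-145996829 (minus strand), the PKLR window, around the downstream of its start sites, at chr1:155300903-155301202 (minus strand), and the ARRDC4 window at chr15:97960453-97960752 (plus strand). Capitals mark matches to a ChoRE pair, a forkhead site (GTAAACA) or an E-box (CACGTG).
TXNIP: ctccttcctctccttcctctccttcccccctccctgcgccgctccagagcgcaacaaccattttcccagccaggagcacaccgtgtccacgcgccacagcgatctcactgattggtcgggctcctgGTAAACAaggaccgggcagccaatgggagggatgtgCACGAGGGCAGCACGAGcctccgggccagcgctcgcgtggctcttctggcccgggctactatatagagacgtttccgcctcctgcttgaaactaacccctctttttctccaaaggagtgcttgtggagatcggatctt
PKLR: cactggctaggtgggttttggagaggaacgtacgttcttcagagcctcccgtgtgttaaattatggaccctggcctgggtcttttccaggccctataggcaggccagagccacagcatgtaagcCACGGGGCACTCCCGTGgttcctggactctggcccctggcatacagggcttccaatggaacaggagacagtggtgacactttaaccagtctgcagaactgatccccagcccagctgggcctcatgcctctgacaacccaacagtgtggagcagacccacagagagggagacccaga
ARRDC4: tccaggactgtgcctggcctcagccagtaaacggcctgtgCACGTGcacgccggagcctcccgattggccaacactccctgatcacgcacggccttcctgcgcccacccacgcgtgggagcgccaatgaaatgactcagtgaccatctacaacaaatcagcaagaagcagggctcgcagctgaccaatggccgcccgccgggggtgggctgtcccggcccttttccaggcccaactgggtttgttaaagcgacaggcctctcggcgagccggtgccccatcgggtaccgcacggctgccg
A ChoRE pair (CACGNG, 5 bases of any kind, then CNCGNG) was found from -88 to -72 in TXNIP and from -126 to -110 in PKLR, counted from the start site. Of 35116 promoter windows of the same length, 0.501% held such a pair on either strand. TXNIP also held a forkhead site from -124 to -118, present in 3.42% of windows. ARRDC4 held an E-box from -210 to -205, present in 7.26% of windows. Promoter windows were available for 9 members, 12 windows in all. Apart from a further E-box in the other PKLR window and an E-box overlapping a CRE core (TGACG) in the upstream PPARGC1A window, the other windows held none of the 4 motifs. The CRE core was present in 24.6% of windows.

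The transfected oligonucleotides act through mature miRNAs, whose seeds (bases 2 to 8, in capitals) are shown to relate them to the members.
hsa-miR-200c-3p: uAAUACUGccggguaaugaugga
hsa-miR-222-5p: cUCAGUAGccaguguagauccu
hsa-miR-512-3p: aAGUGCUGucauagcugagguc
The miR-512-3p seed match CAGCACT occurred once in the 3′ UTR of TXNIP, SLC2A2 and PPARGC1A, and in 19.9% of the 18780 3′ UTRs of MANE Select transcripts. The miR-222-5p match CTACTGA occurred at 2 positions in ARRDC4 and in 9.34% of all 3′ UTRs. The miR-200c-3p match CAGTATT occurred once in PPARGC1A and once in G6PC1, and in 16.4% of all 3′ UTRs. The matches that the mimics could pair with lie at chr1:145992677-145992698 (TXNIP, minus strand), chr3:170997265-170997286 (SLC2A2, minus strand), chr4:23792975-23792996 (PPARGC1A, minus strand) and, for ARRDC4 on the plus strand, chr15:97972327-97972348 and chr15:97972965-97972986, with the match in capitals.
TXNIP, miR-512-3p: ctgcagctgcCAGCACTtggtc
SLC2A2, miR-512-3p: caaaatctttCAGCACTcagaa
PPARGC1A, miR-512-3p: tatcaaaagaCAGCACTacaga
ARRDC4, miR-222-5p: agacctaggtCTACTGAtggca
ARRDC4, miR-222-5p: agtaattgtgCTACTGAaattg
These are sequence matches only, and the effect of each mimic on these genes is given with the comparisons below. For the inhibitor of miR-200c-3p, mean PPARGC1A was 7.19 CPM in IC and 5.88 CPM in I200c with DMSO. With Sorafenib it was 7.73 CPM in IC and 9.48 CPM in I200c. G6PC1 was not tested.

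TXNIP was lower with Sorafenib at both times. At 6 h, the IC libraries held 103, 93.2 and 103 CPM (the count relative to library size, scaled by TMM over all 30 libraries) in DMSO and 68.7, 84.4 and 57.1 CPM in Sorafenib. The I200c libraries held 130, 87.0 and 123 CPM in DMSO and 57.9, 77.9 and 78.7 CPM in Sorafenib. In both transfections all 3 Sorafenib libraries lay below all 3 DMSO libraries. At 24 h, the MC libraries held 94.4, 101 and 90.4 CPM in DMSO and 37.4, 78.5 and 51.3 CPM in Sorafenib, and again the groups did not overlap. The M512 libraries held 78.1, 84.5 and 90.9 CPM in DMSO and 56.7, 39.6 and 15.9 CPM in Sorafenib, the lowest TXNIP level of the 10 groups. M222 was the exception, with 45.1, 68.7 and 48.2 CPM in DMSO and 66.0, 67.4 and 38.3 CPM in Sorafenib, so that the groups overlapped and DMSO was already low.

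**Figure D1:**
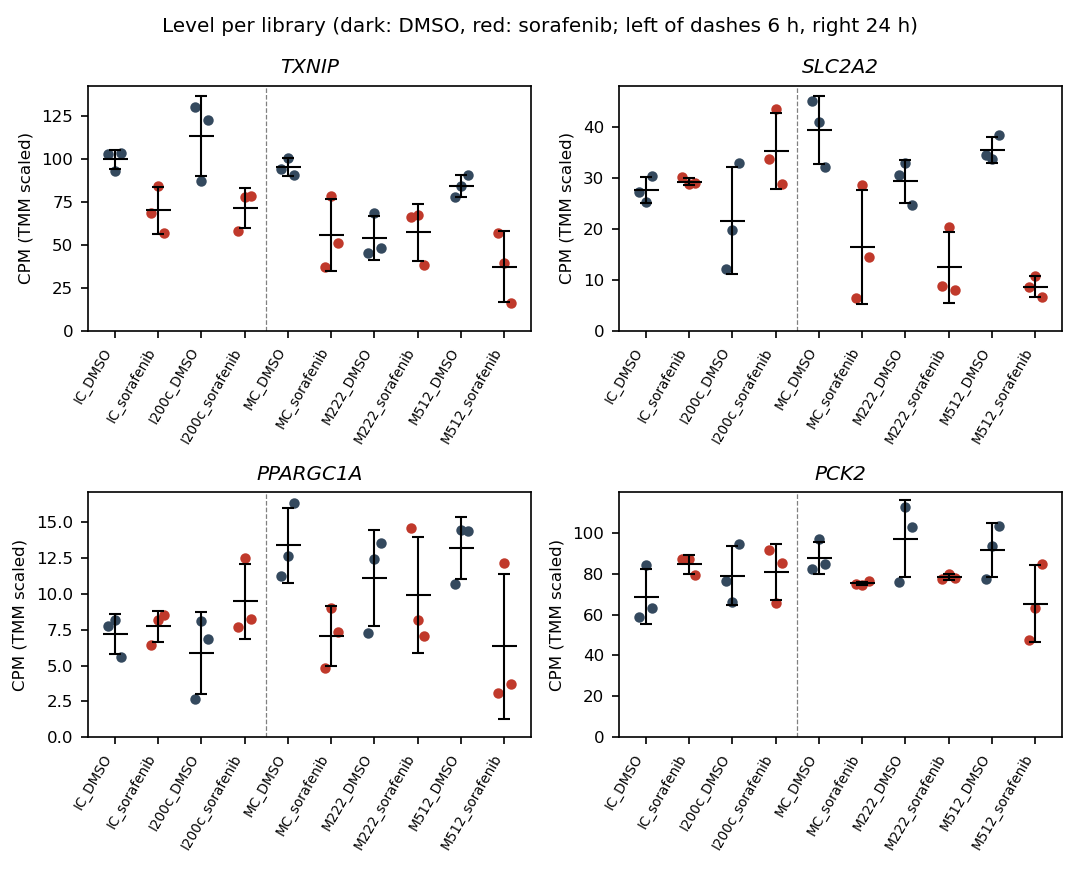
Level of TXNIP, SLC2A2, PPARGC1A and PCK2 (y axis, CPM scaled by TMM) in each of the 30 libraries, by group (x axis). Points are libraries, dark for DMSO and red for Sorafenib, bars are the mean and SD of 3 libraries, and the dashed line separates 6 h from 24 h. SLC2A2 in M512 with Sorafenib sits between 6.59 and 10.8 CPM, below the 33.7 to 38.3 CPM of its DMSO libraries.

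Averaged over the 6 h transfections, TXNIP fell by 0.59 on the log2 scale (SE 0.13, adjusted p = 0.0142, edgeR quasi-likelihood test), a 1.51-fold lower level. Averaged over the 24 h transfections it fell by 0.63 (SE 0.19, adjusted p = 0.0155), a 1.55-fold lower level. It was the only member called (adjusted p below 0.05) at 6 h, 1 of the 8 members that passed the filter on low counts, against 2.89% of the 12738 genes tested (1.15% higher and 1.73% lower). The 6 h call was lost without replicate 3 of IC in Sorafenib (log2 difference -0.52, adjusted p = 0.0514). The 24 h call was kept in each of 18 fits that left out 1 library. Its highest adjusted p over all alternative edgeR and DESeq2 fits was 0.0494, also close to the threshold. Within single transfections, the TXNIP difference was -0.52 in IC (SE 0.19, adjusted p = 0.909), -0.67 in I200c (SE 0.18, adjusted p = 0.0585), -0.77 in MC (SE 0.33, adjusted p = 0.218), 0.08 in M222 (SE 0.33, adjusted p = 0.925) and -1.21 in M512 (SE 0.33, adjusted p = 0.0209). Only the M512 difference passed the test. That call was lost in 3 of 6 fits that left out 1 library, without replicate 2 or 3 of M512 in DMSO (adjusted p = 0.0631 and 0.0754) or replicate 3 of M512 in Sorafenib (log2 difference -0.84, adjusted p = 0.0740), and when only the M512 libraries were fitted (adjusted p = 0.0606). The M222 effect of Sorafenib differed from that in MC by 0.86 (95% interval -0.10 to 1.81, adjusted p = 1.00 in the edgeR fit), so a difference between these transfections was not shown.

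In the order of mean TXNIP levels, the DMSO groups I200c (113 ± 23.1 CPM, SD, n = 3), IC (99.8 ± 5.69 CPM), MC (95.2 ± 5.15 CPM) and M512 (84.5 ± 6.37 CPM) came first. The Sorafenib groups I200c (71.5 ± 11.8 CPM), IC (70.1 ± 13.7 CPM), M222 (57.2 ± 16.4 CPM) and MC (55.7 ± 20.9 CPM) followed, then M222 in DMSO (54.0 ± 12.8 CPM) and M512 in Sorafenib (37.4 ± 20.5 CPM). The libraries of every group overlapped with those of the next group in this order. M222 in DMSO lay below MC in DMSO without overlap, with a log2 difference of -0.84 (SE 0.33, unadjusted p = 0.0169) that did not pass the correction over all genes (adjusted p = 0.770).

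ARRDC4, the paralog of TXNIP that shares its regulation by ChREBP, had few counts, 0 to 35 per library. The IC libraries held 4.08, 0 and 4.16 CPM in DMSO and 1.40, 1.77 and 3.07 CPM in Sorafenib. The M512 libraries held 0.123, 1.06 and 2.11 CPM in DMSO and 5.83, 1.62 and 3.23 CPM in Sorafenib. ARRDC4 differed by -0.87 (SE 0.59, adjusted p = 0.526) at 6 h and by 1.39 (SE 0.67, 95% interval -0.004 to 2.78, adjusted p = 0.135) at 24 h, so neither a fall alongside TXNIP nor a rise was shown. The estimate at 24 h minus that at 6 h, in a fit of all 30 libraries chosen after seeing the data, was 2.26 (SE 0.97, adjusted p = 0.143). With counts this low, differences of the size seen for TXNIP were not detectable.

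Among the other alpha-arrestins, a family of adaptors that direct membrane proteins to endocytosis, ARRDC3 was higher with Sorafenib, without overlap, in every transfection. Its lowest, median and highest levels were 10.0, 18.5 and 22.3 CPM in IC with DMSO and 43.0, 46.4 and 46.8 CPM with Sorafenib. In M512 they were 6.04, 8.38 and 8.87 CPM with DMSO and 69.6, 103 and 109 CPM with Sorafenib. ARRDC3 rose by 1.87 at 6 h (SE 0.21, adjusted p = 1.75e-05) and by 2.58 at 24 h (SE 0.21, adjusted p = 4.55e-09) on the log2 scale, opposite to TXNIP. Single transfections passed the test in I200c, MC, M222 and M512, but not in IC (log2 difference 1.41, adjusted p = 0.108). Of the 6 alpha-arrestins listed, 4 were tested at 6 h and 5 at 24 h, and at each time ARRDC3 rose and TXNIP fell while the others did not pass. The list median was -0.31 at 6 h and 0.73 at 24 h, beside 0.01 and -0.04 over all genes.

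SLC2A2, the transporter that carries glucose both into and out of hepatocytes, showed the largest of the changes called among the members at 24 h. The MC libraries held 45.0, 41.0 and 32.1 CPM in DMSO and 6.51, 28.6 and 14.5 CPM in Sorafenib. The M222 libraries held 30.5, 32.9 and 24.6 CPM in DMSO and 8.76, 20.4 and 8.08 CPM in Sorafenib. The M512 libraries held 34.4, 33.7 and 38.3 CPM in DMSO and 8.55, 10.8 and 6.59 CPM in Sorafenib. In all 3 transfections every Sorafenib library lay below every DMSO library. The mean over the 24 h transfections fell by 1.53 on the log2 scale (SE 0.23, adjusted p = 2.52e-05), a 2.90-fold lower level, and this call was kept in each of 18 fits that left out 1 library. Within transfections SLC2A2 differed by -2.08 in M512 (SE 0.41, adjusted p = 0.00163), which passed the test, and by -1.27 in MC (SE 0.39, adjusted p = 0.0811) and -1.26 in M222 (SE 0.40, adjusted p = 0.0696), which did not. DESeq2 called SLC2A2 in each of these 3 transfections. An annotated long non-coding gene spans the whole SLC2A2 locus on the opposite strand, and without the strand setting of the counting its reads cannot be told apart from those of SLC2A2.

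At 6 h SLC2A2 was not lower. The IC libraries held 27.2, 25.2 and 30.3 CPM in DMSO and 30.1, 28.8 and 28.9 CPM in Sorafenib. The I200c libraries held 12.1, 19.8 and 32.9 CPM in DMSO and 33.8, 43.4 and 28.7 CPM in Sorafenib, and both pairs of groups overlapped. The 6 h mean differed by 0.39 (SE 0.19, 95% interval -0.01 to 0.78, adjusted p = 0.335). Without replicate 3 of I200c in DMSO, SLC2A2 was called higher with Sorafenib in I200c (log2 difference 1.14, adjusted p = 0.0204, edgeR). Over the controls alone, the 24 h effect in MC differed from the 6 h effect in IC by -1.38 (SE 0.47, unadjusted p = 0.00977, adjusted p = 0.208). In the fit of all 30 libraries, the mean 24 h effect lay below the mean 6 h effect (log2 difference -1.92, SE 0.33, adjusted p = 0.000182), and it was called in each of 30 fits that left out 1 library. In that fit 9.4% of 13800 genes were called, and TXNIP was not (log2 difference -0.04, 95% interval -0.57 to 0.49, adjusted p = 0.956).

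**Figure D2:**
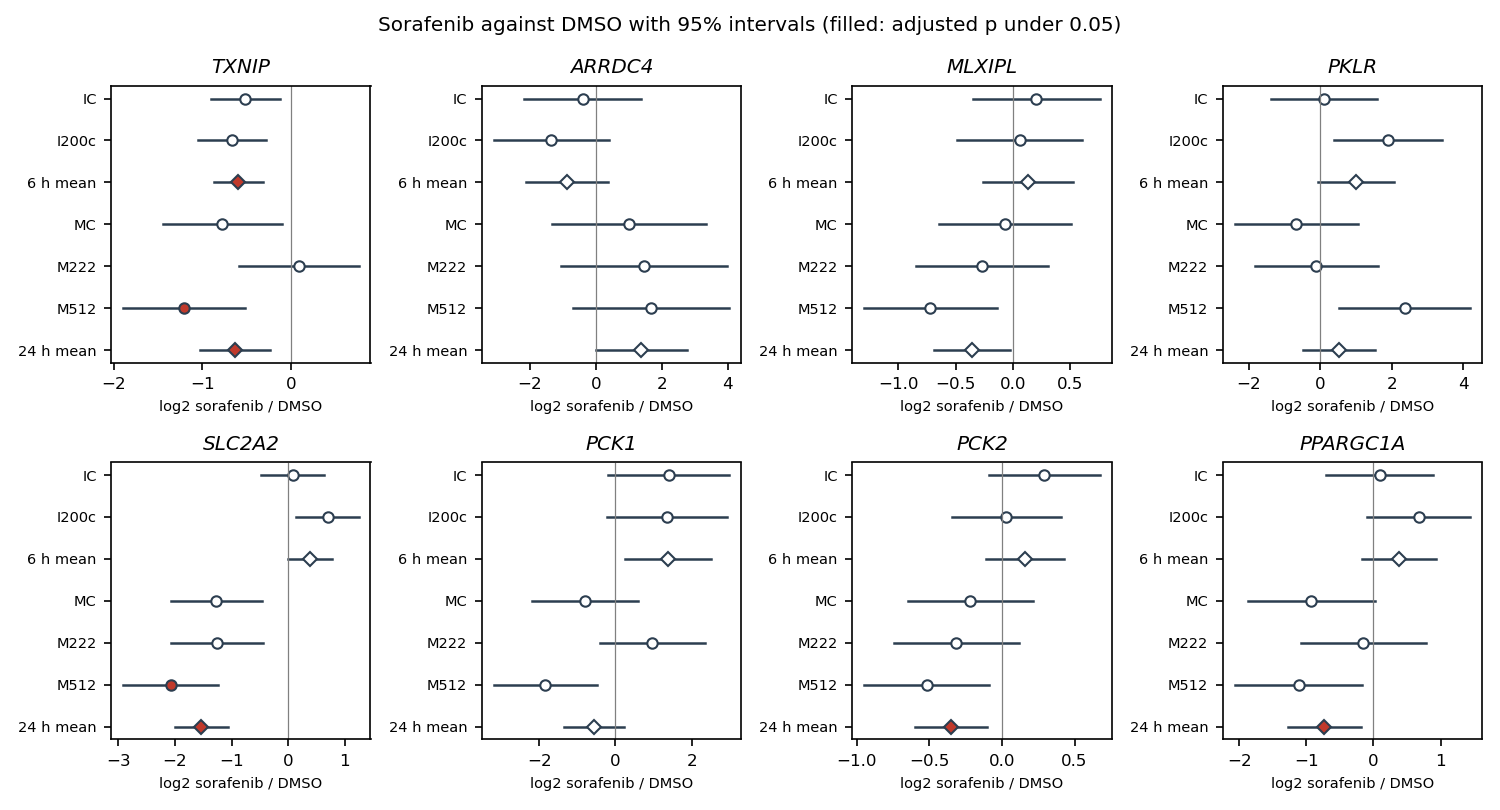
Log2 ratio of Sorafenib to DMSO (x axis) for the 8 members tested, in each transfection (circles) and averaged over the transfections of each time (diamonds), with 95% intervals. Filled symbols passed the test (adjusted p below 0.05). The x axes differ between panels. TXNIP was filled at both times, SLC2A2, PCK2 and PPARGC1A at 24 h.

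At 24 h, 4 of the 8 members tested were called, all lower, against 25.8% of 13244 genes (13.4% higher and 12.4% lower). Besides TXNIP and SLC2A2 these were PCK2, the mitochondrial phosphoenolpyruvate carboxykinase, and PPARGC1A. PCK2 held 82.2, 96.8 and 84.5 CPM in MC with DMSO and 74.9, 74.7 and 76.3 CPM with Sorafenib. In M222 it held 76.0, 113 and 103 CPM with DMSO and 77.2, 79.9 and 77.9 CPM with Sorafenib, and in M512 77.2, 93.4 and 104 CPM with DMSO and 47.4, 63.4 and 84.9 CPM with Sorafenib. The groups were apart in MC and overlapped in M222 and M512. The 24 h mean fell by 0.35 on the log2 scale (SE 0.12, adjusted p = 0.0336), a 1.27-fold lower level, and was below the threshold in only 5 of 18 fits that left out 1 library. The call was also lost without the filter on low counts (adjusted p = 0.0670). The locus of PCK2 lies wholly within that of NRL on the opposite strand, and the strand setting of the counting was not given in the sources used here.

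PPARGC1A held 11.3, 12.6 and 16.3 CPM in MC with DMSO and 4.85, 8.98 and 7.38 CPM with Sorafenib, without overlap. In M222 it held 7.30, 12.5 and 13.5 CPM with DMSO and 14.6, 8.17 and 7.05 CPM with Sorafenib. In M512 it held 10.7, 14.5 and 14.4 CPM with DMSO and 3.11, 12.2 and 3.73 CPM with Sorafenib. The groups overlapped in both mimic transfections. In M512 a single Sorafenib library lay within the DMSO range, and in M222 1 Sorafenib library lay above every DMSO library. The 24 h mean fell by 0.73 on the log2 scale (SE 0.26, adjusted p = 0.0433), a 1.66-fold lower level, and also passed in only 5 of 18 fits that left out 1 library. Without the filter on low counts it missed the threshold (adjusted p = 0.0503). Its locus overlaps 2 long non-coding genes on the opposite strand. At 6 h PPARGC1A differed by 0.38 (SE 0.27, adjusted p = 0.536) and PCK2 by 0.16 (SE 0.13, adjusted p = 0.608). In the fit of all libraries, the difference between the times was -1.11 for PPARGC1A (SE 0.40, adjusted p = 0.0743) and -0.50 for PCK2 (SE 0.18, adjusted p = 0.0722).

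Hepatocyte transcripts moved at 24 h as well. Of 10 hepatocyte lineage markers, 5 fell at 24 h, against 12.4% of all genes, with a list median of -0.35, among them HNF4A, a nuclear receptor of the hepatocyte programme, which fell by 1.00 (adjusted p = 2.40e-06), and APOB (log2 difference -1.06, adjusted p = 1.23e-05), the apolipoprotein of secreted lipoproteins. The summed marker level was 12612 to 14029 CPM in MC with DMSO and 8778 to 11013 CPM with Sorafenib, 11061 to 13874 and 7234 to 10083 CPM in M222, and 16005 to 17069 and 9493 to 11029 CPM in M512. At 6 h none of the 10 markers passed (2 at an unadjusted p below 0.05, beside 1962 of 12738 genes, and 0 by DESeq2). The sums were 10218 to 12440 CPM in DMSO and 10730 to 13228 CPM in Sorafenib. The part of this shift in the lower SLC2A2, PCK2 and PPARGC1A levels was not tested. In these lysates, fewer cells of a kind and less RNA per cell cannot be told apart. Markers of other cell types were low, but some moved with Sorafenib. Fibroblast sums were at most 13.6 CPM, with DCN, LUM and COL1A2 at 0, and went from 11.7 to 13.6 CPM in M512 with DMSO to 0 to 3.98 CPM with Sorafenib. Of the 2 fibroblast markers tested, PDGFRB was called lower in the 6 h mean (adjusted p = 0.0190), in I200c and in M512, where all Sorafenib libraries were at 0, at least 5.02-fold lower. Endothelial sums reached 3.02 CPM, with VWF, KDR and TEK at 0, and leukocyte sums ran from 103 to 311 CPM, highest in M512 with DMSO, nearly all from LYZ, with CD3E at 0 and 1 count of PTPRC in all. LYZ, which encodes lysozyme, fell by 0.35 at 24 h (adjusted p = 0.0373), and in M512 the leukocyte sums were 246 to 311 CPM with DMSO and 122 to 202 CPM with Sorafenib. The part of these shifts in the TXNIP and SLC2A2 values was not tested.

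PCK1, the cytosolic carboxykinase that is rate-limiting for gluconeogenesis, was high in 1 group only. M512 in DMSO held 13.7, 7.09 and 9.30 CPM (counts of 111, 47 and 66), above every library of the 9 other groups. With Sorafenib the M512 libraries held 3.30, 2.23 and 2.98 CPM, a difference of -1.84 (SE 0.66, unadjusted p = 0.0101) that did not pass (adjusted p = 0.0771) except when the M512 libraries were fitted alone, when the total counts set the scale or with DESeq2. In DMSO, M512 lay above MC (4.06, 0.970 and 3.68 CPM) by 1.75 (SE 0.65, unadjusted p = 0.0130, adjusted p = 0.287). The hepatocyte, fibroblast and leukocyte marker sums were highest in this group too, and their part in its PCK1 level was not tested. At 6 h the direction was the other way, with 1.75, 1.36 and 0.489 CPM in IC with DMSO and 2.10, 2.90 and 4.75 CPM with Sorafenib, and a 6 h mean difference of 1.38 (SE 0.54, unadjusted p = 0.0187, adjusted p = 0.208). The 24 h mean differed by -0.56 (SE 0.38, adjusted p = 0.299), and M222 went against it with 0.96 (SE 0.67, adjusted p = 0.467). In the fit of all libraries the effect at 24 h lay below that at 6 h (log2 difference -1.94, SE 0.63, adjusted p = 0.0439), a call kept in 14 of 30 fits that left out 1 library (adjusted p = 0.0268 to 0.0952).

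**Figure D3:**
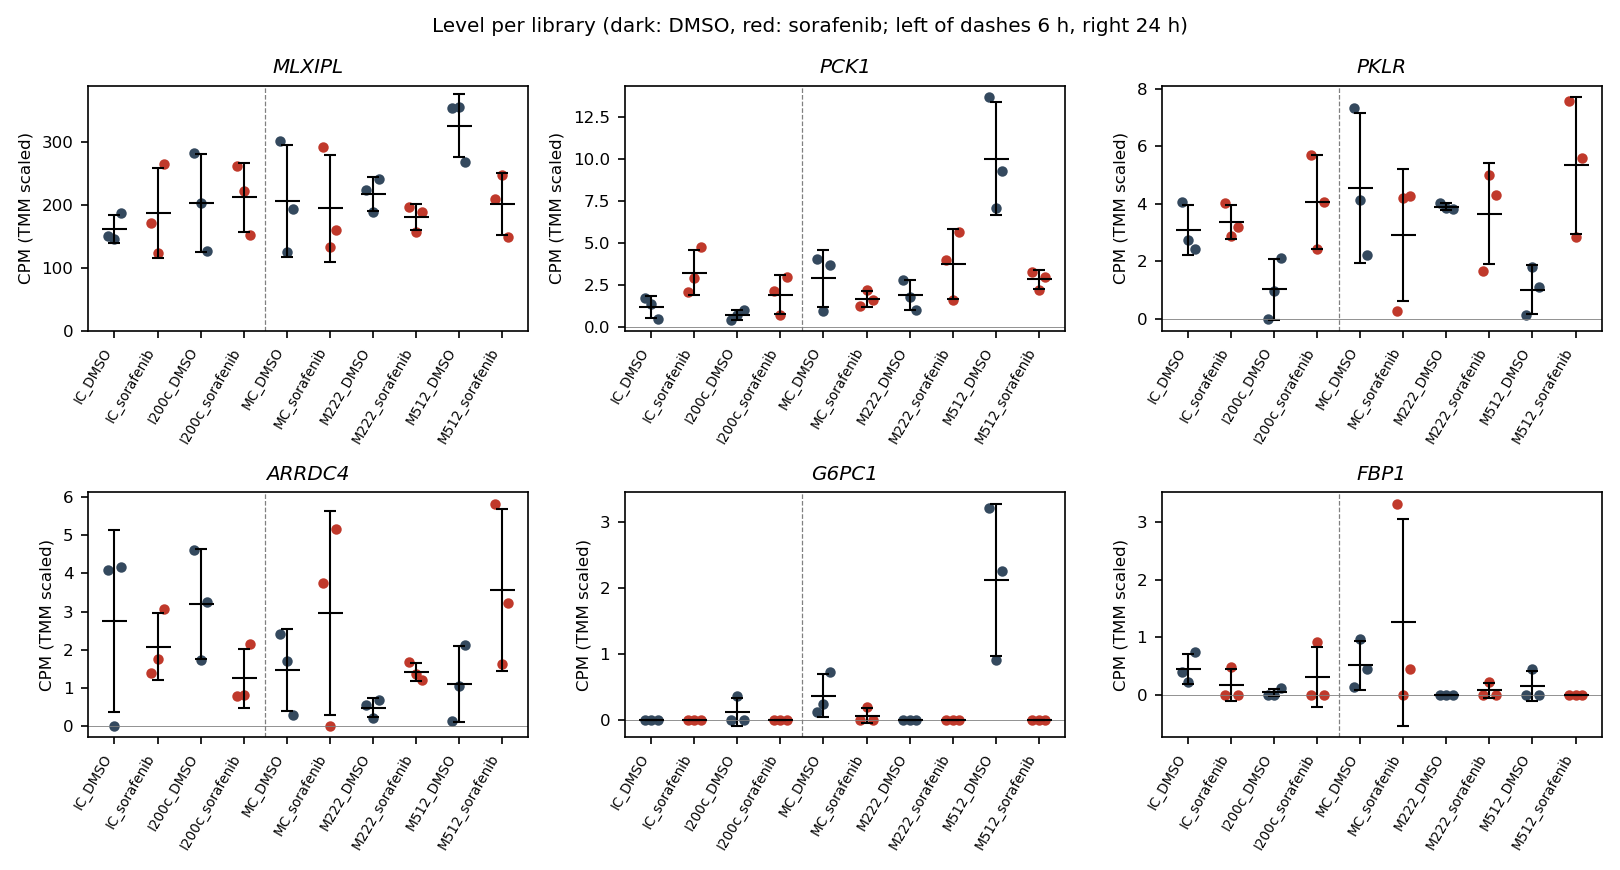
Level of MLXIPL, PCK1, PKLR, ARRDC4, G6PC1 and FBP1 (y axis, CPM scaled by TMM) in each library by group (x axis), with colours, mean and SD bars and dashed line as for TXNIP. PCK1 and G6PC1 were highest in M512 with DMSO, where PCK1 spans 7.09 to 13.7 CPM and G6PC1 0.906 to 3.20 CPM.

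G6PC1, the glucose-6-phosphatase subunit that releases free glucose, and FBP1, fructose-1,6-bisphosphatase, did not pass the filter on low counts and were not tested. G6PC1 had counts of 26, 6 and 16 in M512 with DMSO (3.20, 0.906 and 2.25 CPM) and 0 in all 3 M512 libraries with Sorafenib, at least 4.07-fold lower when the Sorafenib group is set at the mean level of 3 counts per library. MC in DMSO had counts of 1, 1 and 5, and the other groups held at most 3 counts in any library. Without the filter, the M512 difference of G6PC1 had an unadjusted p of 0.0103 and an adjusted p of 0.119 in the edgeR quasi-likelihood test. FBP1 had 58 counts in 13 libraries, of which 24 were in replicate 1 of MC with Sorafenib, and 0 in M222 with DMSO and M512 with Sorafenib. At the depth of these libraries, 3 counts, the limit set by a count of 0, stand for 0.304 to 0.733 CPM.

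M512 in DMSO also held the most MLXIPL, the ChREBP gene, with 353, 354 and 267 CPM, and the libraries of this group did not overlap with those of the group next in mean, M222 in DMSO (223, 188 and 241 CPM). Single libraries of other groups lay within its range, at 300.3 CPM in MC with DMSO, 291 CPM in MC with Sorafenib and 281 CPM in I200c with DMSO. A long non-coding gene on the same strand overlaps MLXIPL over 2241 bases, so counts there cannot be told apart by strand. With Sorafenib M512 held 209, 247 and 150 CPM, a difference of -0.72 (SE 0.28, adjusted p = 0.104) that passed only with total counts or without the filter. The 24 h mean of MLXIPL differed by -0.36 (SE 0.16, unadjusted p = 0.0368, adjusted p = 0.107), and passed when total counts set the scale, without the filter and without replicate 1 of MC in Sorafenib. At 6 h it differed by 0.13 (SE 0.19, 95% interval -0.26 to 0.52, adjusted p = 0.795). MLX, the gene of its partner, and MLXIP, also listed under glucose sensing, did not pass at either time.

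PKLR, a ChREBP target of glycolysis, had 0 to 58 counts per library. M512 in DMSO held 0.123, 1.81 and 1.13 CPM, and with Sorafenib 7.57, 2.84 and 5.59 CPM, without overlap. This difference of 2.36 (SE 0.89, unadjusted p = 0.0137, adjusted p = 0.0924) did not pass, although DESeq2 called it. I200c in DMSO was similarly low, with 0, 0.986 and 2.13 CPM against 5.70, 2.44 and 4.07 CPM with Sorafenib (log2 difference 1.90, SE 0.73, adjusted p = 0.196). The mean differences were 1.00 at 6 h (SE 0.51, adjusted p = 0.355) and 0.53 at 24 h (SE 0.49, adjusted p = 0.453). The annotated 3′ end of PKLR overlaps HCN3 on the opposite strand over 556 bases, so its counts are uncertain.

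Within single transfections, no member was called in IC (1 at an unadjusted p below 0.05, 0 by DESeq2), against 0.0393% of genes (0.0314% higher and 0.00785% lower). None was called in I200c (3 unadjusted, TXNIP by DESeq2), against 2.28% (0.911% higher and 1.37% lower). None was called in MC (2 unadjusted, SLC2A2 by DESeq2), against 2.6% (1.8% higher and 0.793% lower), nor in M222 (1 unadjusted, SLC2A2 by DESeq2), against 4.38% (2.82% higher and 1.56% lower). In M512, TXNIP and SLC2A2 were called, both lower, against 9.96% (5.34% higher and 4.62% lower), and 7 of 8 members had an unadjusted p below 0.05. No difference in the effect of Sorafenib between a mimic and its control passed the test for any member (0 called for M222, with 0 at an unadjusted p below 0.05, and 0 for M512, with 1, against 0% and 0.00755% of genes), nor did the miR-200c-3p inhibitor (0 called, 0 unadjusted, against 0% of genes), and DESeq2 called none. The Sorafenib effect in MC compared with IC gave 0 called members (4 unadjusted, 0 by DESeq2), against 0.216% of genes. The unadjusted member counts are read against all genes with an unadjusted p below 0.05 in the same edgeR test. Of 12738 genes, 481 lay below it for IC, 1945 for I200c and 413 for the inhibitor's difference from its control. Of 13244 genes, 2232 lay below it for MC, 2531 for M222 and 3205 for M512. The differences of M222 and M512 from MC had 260 and 667 of the 13244. MC compared with IC had 1709 of 12500.

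The oligonucleotides themselves changed no member past the test. The inhibitor against its control had 0 of 8 members with an unadjusted p below 0.05 in either treatment. Of all 12738 genes, 667 in DMSO and 273 in Sorafenib were below that threshold, and 0.0157% and 0% were called. The miR-222-5p mimic had 1 in DMSO, TXNIP, and 0 in Sorafenib. Of all 13244 genes, 737 and 800 were below 0.05 unadjusted, and 0% were called in each. The miR-512-3p mimic had 3 in DMSO (PCK1, PKLR and MLXIPL) and 1 in Sorafenib (SLC2A2). Of all 13244 genes, 1385 and 1465 were below 0.05 unadjusted, and 0.634% and 0.355% were called. DESeq2 called no member in these comparisons. For the genes with a seed match shown above, the mimic minus control difference in DMSO was -0.17 for TXNIP (95% interval -0.84 to 0.49), -0.16 for SLC2A2 (-0.94 to 0.63) and -0.03 for PPARGC1A (-0.95 to 0.90) with miR-512-3p, and -1.55 for ARRDC4 (-4.06 to 0.97) with miR-222-5p. Under Sorafenib it was -0.61 for TXNIP (-1.29 to 0.07), -0.97 for SLC2A2 (-1.80 to -0.13, adjusted p = 0.360 in the edgeR fit) and -0.22 for PPARGC1A (-1.18 to 0.75) with miR-512-3p, and -1.10 for ARRDC4 (-3.44 to 1.25) with miR-222-5p. Between the DMSO controls of the 2 times, MC and IC, no member was called (2 unadjusted, 0 by DESeq2), against 0.528% of genes. Unadjusted, 1973 of 12500 genes were below 0.05. PPARGC1A was higher in MC by 0.92 (SE 0.33, adjusted p = 0.183).

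The other genes of each pathway gave the setting of these values, and their counts are read against the share of all genes called, 2.89% at 6 h and 25.8% at 24 h. The unadjusted counts at 6 h stand beside 1962 of 12738 genes with an unadjusted p below 0.05. Of 9 gluconeogenesis enzymes and transporters listed, 5 were tested, none of which passed at 6 h (1 unadjusted, 0 by DESeq2). At 24 h, 3 of 5 fell and the list median was -0.43. Besides PCK2 these were PC, the pyruvate carboxylase that starts the pathway (log2 difference -0.97, SE 0.28, adjusted p = 0.0114), and G6PC3, the widely expressed glucose-6-phosphatase (-0.43, SE 0.14, adjusted p = 0.0241). PC held 11.0 to 13.8 CPM in M512 with DMSO and 5.72 to 8.35 CPM with Sorafenib.

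Some regulators of gluconeogenesis rose at 6 h, and more of them moved, in both directions, at 24 h. At 6 h, 4 of 14 tested rose and none fell (median 0.27), against 1.15% of all genes higher and 1.73% lower. FOXO3, a forkhead factor, rose by 0.63 (adjusted p = 0.0194), and CREB3L3, a liver membrane-bound transcription factor, by 1.05 (adjusted p = 0.0350). At 24 h, 5 rose and 5 fell of 15 tested (median 0.04), against 13.4% higher and 12.4% lower of all genes, with CEBPB rising by 1.95 (adjusted p = 1.34e-07), FOXO3 rising by 1.01 (adjusted p = 9.89e-06) and HNF4A falling as given above. SIK1, a kinase that restrains CREB coactivators, had no counts in I200c or M512 with DMSO, and was at least 13.4-fold and at least 32.9-fold higher with Sorafenib, with DMSO set at the level of 3 counts per library. SIK1 has a near-identical copy in the genome, so its counts are uncertain.

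**Figure D4:**
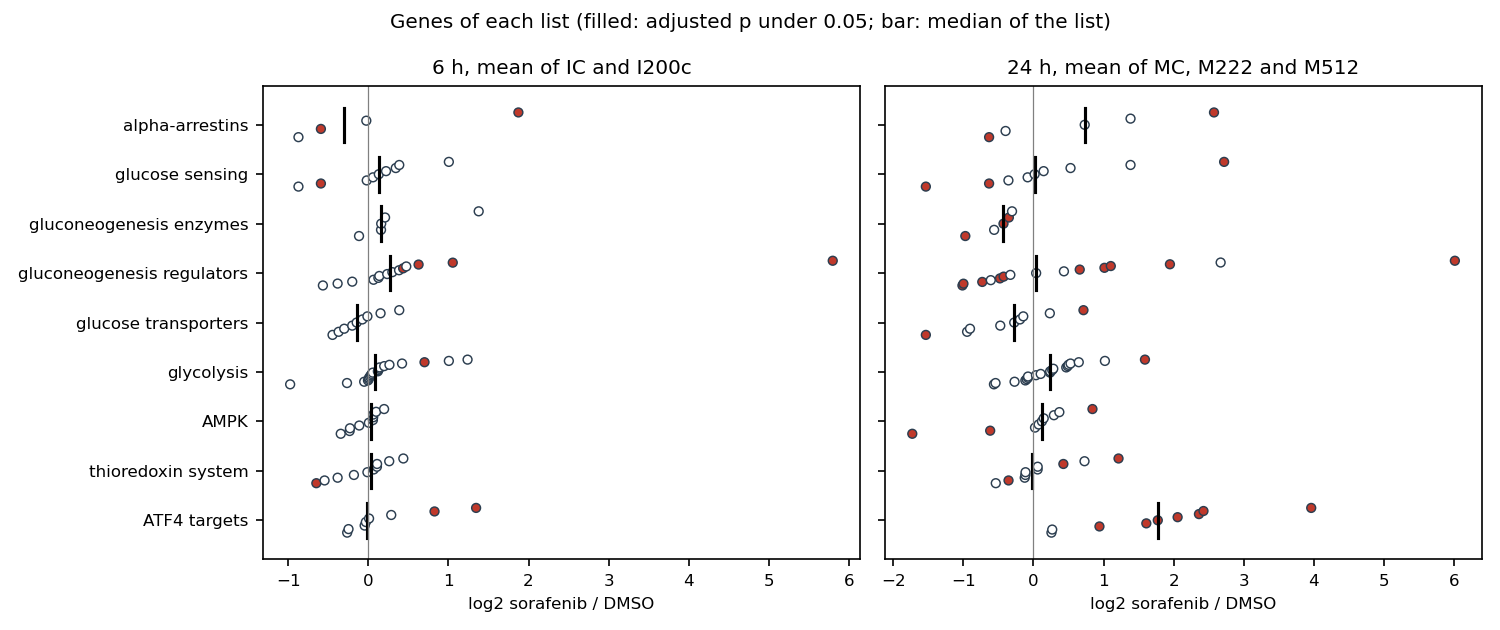
Log2 ratio of Sorafenib to DMSO (x axis) at 6 h and 24 h for the genes of 9 lists (y axis, 1 row a list, spread vertically for legibility). Each circle is a gene, filled when its adjusted p was below 0.05, and the black bar is the list median, which was -0.01 at 6 h and 1.77 at 24 h for the ATF4 targets and -0.43 at 24 h for the gluconeogenesis enzymes.

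In glucose sensing, KLF10, a glucose-responsive repressor of gluconeogenic genes, rose at 24 h by 2.72 (SE 0.27, adjusted p = 7.66e-08), from a median of 4.70 CPM to 57.2 CPM in MC, and differed by 0.34 at 6 h (adjusted p = 0.622). Of the 10 genes of this list, 9 were tested, with 1 lower at 6 h and 1 higher and 2 lower at 24 h, the latter count near the 25.8% of all genes called. The list medians were 0.13 and 0.02. Among 9 glucose transporters tested of 11, none passed at 6 h (1 unadjusted, 0 by DESeq2), and at 24 h SLC2A2 fell and SLC2A8, an intracellular transporter, rose by 0.71 (SE 0.14, adjusted p = 0.000604), with a median of -0.27. SLC2A1, the ubiquitous uptake transporter, differed by -0.14 at 24 h (adjusted p = 0.650).

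Of the glycolysis genes, 1 of 20 tested passed at each time. These were ENO3, an enolase, at 6 h (0.70 higher, adjusted p = 0.00940) and PFKFB3, which makes the activator of phosphofructokinase, at 24 h (1.59 higher, adjusted p = 0.00179). DESeq2 called 5 of the 20 at 24 h. The list medians were 0.09 and 0.24. The AMPK genes encode the energy-sensing kinase, its upstream kinases and cofactors of these. None of 10 tested passed at 6 h (1 unadjusted, 0 by DESeq2), and 3 of 9 passed at 24 h, near the 25.8% of all genes. PRKAA1, a catalytic subunit, rose by 0.84 (adjusted p = 0.00401). CAMKK2, an upstream kinase, fell by 0.62 (adjusted p = 0.0112), and STRADA, a cofactor of an upstream kinase, by 1.73 (adjusted p = 0.0489). STRADA was at 7.08 CPM or less in every library. The list medians were 0.03 and 0.12. These are transcript levels, and the activity of AMPK was not measured.

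Thioredoxin reductase 1, TXNRD1, which restores the thioredoxin that TXNIP binds, changed in opposite directions at the 2 times. It fell by 0.65 at 6 h (SE 0.13, adjusted p = 0.00684) and rose by 1.21 at 24 h (SE 0.13, adjusted p = 1.74e-07), a difference between times of 1.87 (SE 0.19, adjusted p = 3.47e-08) in the fit of all libraries. Its lowest to highest levels in I200c were 98.8 to 145 CPM with DMSO and 66.9 to 76.9 CPM with Sorafenib, and in M512 86.5 to 111 CPM and 160 to 220 CPM. TXNIP fell at both of these times. Of 10 genes of the thioredoxin system, 1 passed at 6 h and 3 at 24 h (2 higher and 1 lower), with medians of 0.03 and -0.03. The count at 24 h was near the 25.8% of all genes called.

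PCK2 is also known as a target of ATF4, the transcription factor of amino acid stress. Of 8 listed ATF4 genes tested at 6 h, 2 rose (DDIT3 by 1.35 and DDIT4 by 0.83), with a median of -0.01. At 24 h, 7 of 9 rose, against 13.4% of all genes, with a median of 1.77, among them ASNS, asparagine synthetase, by 2.43 (adjusted p = 8.57e-09) and TRIB3, a pseudokinase, by 1.77 (adjusted p = 8.28e-09). PCK2 fell in the same comparison, as given above.

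Over the 30 libraries, the genes whose log2 levels followed TXNIP most closely among 13799 others were MACF1 (Pearson r = 0.85), DLG1 (0.84), TULP4 (0.82), ZNF281 (0.81) and SOS1 (0.80). After centring within each transfection, WWC2 (0.84), MACF1 (0.82), DLG1 (0.82), AK4 (0.81) and URI1 (0.81) came first. Among the members, SLC2A2 correlated with TXNIP at r = 0.63, PPARGC1A at 0.22, PCK2 at 0.06, ARRDC4 at -0.07, MLXIPL at -0.07, PCK1 at -0.20 and PKLR at -0.27. These values are descriptive, since the 30 points share groups, library depth and the Sorafenib contrast. MACF1, a cytoskeletal linker, went from a group mean of 159 CPM in M512 with DMSO to 112 CPM with Sorafenib, and SOS1, an exchange factor for RAS, from 184 to 50.8 CPM in I200c.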

How the data were processed

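HepG2 cells in 10 groups of 3 biological replicates were profiled by QuantSeq 3′ mRNA sequencing. According to the study's methods, the authors trimmed the reads, aligned them to GRCh38 with STAR and counted them per gene with HTSeq, and the raw counts they deposited were used here. The strand setting and annotation release of the counting were not given in the sources used here. A second deposited table, of normalized values, was not used. The 92 lines that name no gene (3 counts) were left out.

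edgeR 4.0.16 (R 4.3.3) was fitted with TMM factors, its default filter on low counts and 1 coefficient per group, apart for 6 h (12 libraries, 12738 genes), 24 h (18 libraries, 13244 genes) and the IC and MC controls (12 libraries, 12500 genes). Two-sided quasi-likelihood tests were adjusted by Benjamini-Hochberg over all genes of a fit, and called below 0.05. The study's own tool, DESeq2 (1.42.0 here), was an alternative. The SE is the log2 difference divided by the root of F. Levels are CPM. P-values set a difference against the spread between replicates, estimated over all libraries of a fit. Floors cover counting error only, at 3 counts. Replicates differed beyond sampling noise (chi-square per degree of freedom 4.54 or more). All members were named, and from other lists at most 4 called genes per list and time (by p), SLC2A1, MLX and MLXIP being added after their values were seen. The members and lists were chosen with earlier results of these data known. The scripts were tested on simulated data.

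Gene positions and 3′ UTRs came from GENCODE 44 and promoter windows and miRNAs from RefSeq.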

Additional observations from a re-analysis of the deposited data

Results flagged for a closer look

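In the fit of all 30 libraries, SLC2A2 and PCK1 were called for a different Sorafenib effect at the 2 times. This test of the difference itself was chosen after seeing the data. The effect at 24 h minus that at 6 h was -1.92 for SLC2A2 (SE 0.33, adjusted p = 0.000182, edgeR) and -1.94 for PCK1 (SE 0.63, adjusted p = 0.0439, edgeR). SLC2A2 was called in 30 of 30 fits that left out 1 library and PCK1 in 14 of 30. The test over the controls alone, MC compared with IC, called neither gene. For PCK1 the 24 h effects in M512 and M222 went in opposite directions, as given above. Both times differ also in the kind of oligonucleotide, and the part of either cannot be told apart.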

How the results depend on the processing

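The number of members called under Sorafenib was 1 for the 6 h mean under each alternative to the normalization, filter, tool and block, and 0 to 1 when 1 library was left out. The 24 h mean count was 4, 3 without the filter (TXNIP, SLC2A2 and MLXIPL), 5 with total counts, and 2 to 4 without 1 library. The I200c count of 0 became 1 without the filter and with DESeq2 (TXNIP). It was 0 to 1 without 1 library, with TXNIP lower in 1 fit and SLC2A2 higher in 1 other fit. The MC and M222 counts of 0 each became 1 (SLC2A2) without the filter, with DESeq2 and with the replicate block, and were 0 to 1 without 1 library. The M512 count of 2 became 5 with total counts and 4 with DESeq2, and was 1 to 3 without 1 library. The difference between the times in the controls, 0, became 1 without the filter (SLC2A2), 0 to 1 without 1 library, and 2 in the fit of all libraries. The cause of these moves was not tested.

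Total counts in place of TMM lowered the median log2 difference of all genes by 0.13 (24 h mean), 0.11 (MC), 0.10 (M222) and 0.19 (M512), and moved the share of higher among called genes from 52.1% to 32.8%, 69.5% to 50.1%, 64.3% to 47.9% and 53.6% to 29.9%. Each direction that reversed belonged to a value not called. With total counts the values were -0.0095 for PCK2 in I200c and -0.0116 for TXNIP in M222. Without 1 library, MLXIPL ranged from -0.0312 to 0.29 (6 h mean), -0.13 to 0.44 (IC), -0.19 to 0.36 (I200c) and -0.48 to 0.33 (MC). ARRDC4 ranged from -0.98 to 0.0124 in IC, PKLR from -0.0265 to 0.37 in IC and -0.36 to 0.28 in M222, and PPARGC1A from -0.0437 to 0.21 in IC and -0.50 to 0.0873 in M222. PCK2 ranged from -0.0713 to 0.18 in I200c and TXNIP from -0.0318 to 0.34 in M222.

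Same-numbered replicates deviated together weakly (r of -0.11 to 0.19, above 0.1 in 4 of 15 pairs). Replicates with different numbers had r of -0.16 to 0.13, above 0.1 in 2 of 30 pairs. Whether the numbers pair the samples was not settled by these values. With the replicate block the counts were 1 at 6 h, 4 at 24 h and 2 in M512, as without it. In MC and M222 they were 1 each (SLC2A2), against 0 without the block. Counts of 0 to 58 per library limit ARRDC4, PKLR and FBP1, G6PC1 and most PCK1 values.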
